A study of Mus musculus with 31 samples.

Results

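The set described here holds 38 mouse genes of glycolysis and of the response to low oxygen, taken by symbol from the 48881 gene rows of each count table. Their levels were read in 31 RNA-seq libraries of C57BL/6 mice. The cultured cells were immature thymocytes without CD4 or CD8, taken at the DN1 or the later DN3 stage and grown with stem cell factor, IL-7 and IL-2 on OP9-DL1, a stromal line that displays a Notch ligand. Control cultures carried R26-CreERT2;R26-stop-tdTomato alone, and the floxed cultures had E2Af/fHEBf/f in addition. E2A and HEB are the proteins of Tcf3 and Tcf12. The Cre of both genotypes is expressed from the ubiquitous Rosa26 locus and acts once tamoxifen is present, so the controls share the Cre, the reporter and the drug. Tamoxifen (4-OHT in the sample labels) was given on day 4. Day 4 libraries were not sorted for tdTomato, and the libraries of days 5 and 7 came from sorted tdTomato-positive cells. The sample labels of the DN1 cultures of day 7 place 4-OHT on day 7 where the design text places it on day 4. Each of these 12 culture groups has 2 libraries. Group 2 innate lymphoid cells (ILC2) isolated from mice were also sequenced: 2 thymic and 2 lung libraries of plck-Cre; E2Af/fHEBf/f mice (dKO), and 3 lung libraries of mice with the plck-Id1 transgene, of which 2 have a genotype label that reads plck-Id2 or plck-Id3. The plck promoter drives its transgene in developing T cells and not in every cell of the animal. No label states an age or whether 2 libraries of a group came from separate animals or cultures, so every p measures the spread between these libraries.

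Glycolysis splits glucose into pyruvate, and cells that ferment reduce the pyruvate to lactate and export it. When oxygen falls, the prolyl hydroxylases Egln1 and Egln3 no longer mark Hif1a for decay, and Hif1a with its partner Arnt raises transcription of most glycolytic enzymes, of glucose and lactate carriers and of Vegfa, Bnip3 and Ndrg1. Activated lymphocytes run the same genes in full oxygen, and ILC2 use glycolysis during cytokine production. E proteins such as E2A and HEB bind the E-box, CANNTG, and drive early T cell genes.

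Promoter sequences of 5 members are shown because these genes differed most or stand for a step of the pathway, and because the core of the hypoxia response element and the E-box can be read in them. Each is the 250 bases before the start of a RefSeq transcript (build GRCm38.p6), written 5′ to 3′ on the strand of the gene. In Ldha (chr7:46845554-46845803, plus strand), Slc16a3 (chr11:120948817-120949066, plus strand) and Bnip3 (chr7:138909507-138909756, minus strand), the capitals mark ACGTG and GCGTG on either strand. In Hif1a (chr12:73907617-73907866, plus strand) and Fbp1 (chr13:62888283-62888532, minus strand), they mark CANNTG.
Ldha: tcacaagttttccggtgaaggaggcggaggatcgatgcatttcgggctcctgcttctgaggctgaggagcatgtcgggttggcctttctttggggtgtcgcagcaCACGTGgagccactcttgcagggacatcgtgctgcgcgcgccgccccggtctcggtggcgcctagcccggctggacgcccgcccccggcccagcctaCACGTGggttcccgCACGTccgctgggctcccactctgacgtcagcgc
Slc16a3: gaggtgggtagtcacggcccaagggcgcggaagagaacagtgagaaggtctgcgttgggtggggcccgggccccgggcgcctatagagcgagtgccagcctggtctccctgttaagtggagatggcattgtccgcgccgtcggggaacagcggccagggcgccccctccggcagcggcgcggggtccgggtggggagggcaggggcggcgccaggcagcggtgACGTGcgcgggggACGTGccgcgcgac
Bnip3: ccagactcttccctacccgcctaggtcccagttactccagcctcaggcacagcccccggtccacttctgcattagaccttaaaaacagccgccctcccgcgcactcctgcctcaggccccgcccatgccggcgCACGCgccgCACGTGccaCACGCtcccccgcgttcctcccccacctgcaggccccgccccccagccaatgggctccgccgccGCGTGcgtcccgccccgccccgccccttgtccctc
Hif1a: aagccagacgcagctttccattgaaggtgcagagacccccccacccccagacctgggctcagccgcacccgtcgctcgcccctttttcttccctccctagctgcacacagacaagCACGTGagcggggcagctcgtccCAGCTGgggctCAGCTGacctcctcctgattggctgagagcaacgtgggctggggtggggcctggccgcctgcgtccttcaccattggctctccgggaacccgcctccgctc
Fbp1: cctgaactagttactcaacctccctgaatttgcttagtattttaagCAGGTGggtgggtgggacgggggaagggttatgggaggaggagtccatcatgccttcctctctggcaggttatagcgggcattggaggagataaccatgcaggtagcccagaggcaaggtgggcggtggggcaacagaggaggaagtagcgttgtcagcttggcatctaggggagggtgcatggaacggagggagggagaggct
Below, ACGTG is called the hypoxia core and GCGTG its variant. The Ldha window holds 5 matches of the core, since a palindrome that reads the core on both strands (an E-box too) counts 2 times. Slc16a3 has 2 matches of the core, and Bnip3 has 2 of the core and 3 of the variant. Hif1a has 3 matches of the core and 3 E-boxes, of which 2 are CAGCTG and the other one is that palindrome. Fbp1 has 1 E-box, a CAGGTG, and 0 of the core or its variant. The RefSeq table held 53 promoters of 35 members, with no entry for Slc2a3, Ndrg1 and Bnip3l. The core on either strand was in 47.2% of the 53 and in 16.6% of all 32851 promoters of this length. Its variant was in 52.8% and 28.2% of them. The CAGGTG form of the E-box was in 13.2% and 17.2%, the CAGCTG form in 9.43% and 13.0%, and any E-box in 58.5% and 66.2%. These are counts of letters and say nothing of binding.

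Libraries held 3695522 to 13065445 counts, and 5908459 to 10692186 in the cultures. The summed level of the deleted genes Tcf3 and Tcf12 was 119 to 148 CPM (counts scaled to a common library total of 1e6) in DN1 floxed libraries of day 7 against 355 to 380.0 CPM in controls, and 160.1 to 197 against 610 to 614 in DN3. DN1 floxed replicate b of day 7 stands apart: 13 skeletal muscle markers summed to 8979 CPM there, 80.4 in replicate a and 14.7 to 15.6 in the controls, and 12 of the 13 were above every control in both floxed libraries. Stromal markers without Igfbp4 summed to 2457 to 12310 CPM on day 4 and 29.1 to 184 on days 5 and 7. Erythroid markers summed to 37.7 to 53.5 CPM in DN1 floxed libraries of day 7 against 239 to 287 in controls. Of these 6 genes, 2 were lower and 2 higher in every floxed library, and 1 had no counts. Hbb-bt averaged 28.98 against 226.2 CPM, and Hba-a1 3.245 against 0.3692. The 5 sex-linked genes summed to 1281 to 1885 CPM in floxed and 167 to 198 in control libraries of day 7. In each precursor 1 of them, Xist, was higher and 4 were lower (in DN1, Xist averaged 1456 against 10.23 CPM and Ddx3y 0.8567 against 93.34). Genotype and sex therefore cannot be told apart. ILC2 markers summed to 3001 to 3503 CPM in DN1 floxed libraries of day 7 against 1669 to 1678 in controls. Of these 10 genes, 7 were higher and 1 lower in every floxed library. In DN3 they summed to 3135 to 3259 CPM against 1017 to 1167 (7 of 10 higher, 0 lower). Il2ra averaged 1128 against 1293 CPM in DN1 and 1738 against 665.3 in DN3. By the test described below, 5 of the 8 tested were higher in DN1 and 6 in DN3. Lymphoid precursor and T cell markers summed to 1094 to 1202 CPM in DN1 floxed libraries of day 7 against 1747 to 1786 (6 of 8 lower, 1 higher). In DN3 they summed to 1975 to 2052 CPM against 3519 to 3678 (7 of 8 lower). In RNA pooled over cells, fewer cells of a type and less RNA per cell cannot be told apart. The part of all these differences in the results below was not tested.

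Added over the 38 genes, the level in floxed cultures lay somewhat below the controls on day 5 and above them on day 7. The sum was 2966 to 3313 CPM in the 8 libraries of day 4. On day 5 it was 3257 and 3059 CPM in DN1 floxed libraries against 3298 and 3430 in controls, and 3971 and 3636 against 4571 and 4306 in DN3. On day 7 it reached 4676 and 5238 CPM in DN1 floxed libraries against 3237 and 3429 in their controls. DN3 floxed libraries of that day reached 9333 and 7473 CPM against 6016 and 5122. ILC2 isolated from mice were below the cultures, at 595 and 669 CPM in the thymus and 572 to 1461 in the lung. Mitochondrial genes, and in 1 lung library 2 repeat-like genes, take a large part of those totals: over the counts outside these genes the sums were 1574 and 1566 per 1e6 in the thymus, 1405 to 2582 in the lung and 3027 to 9570 in the cultures. The genotypes did not overlap on day 5 or 7 in either precursor, and these sums carry no test.

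**Figure D1:**
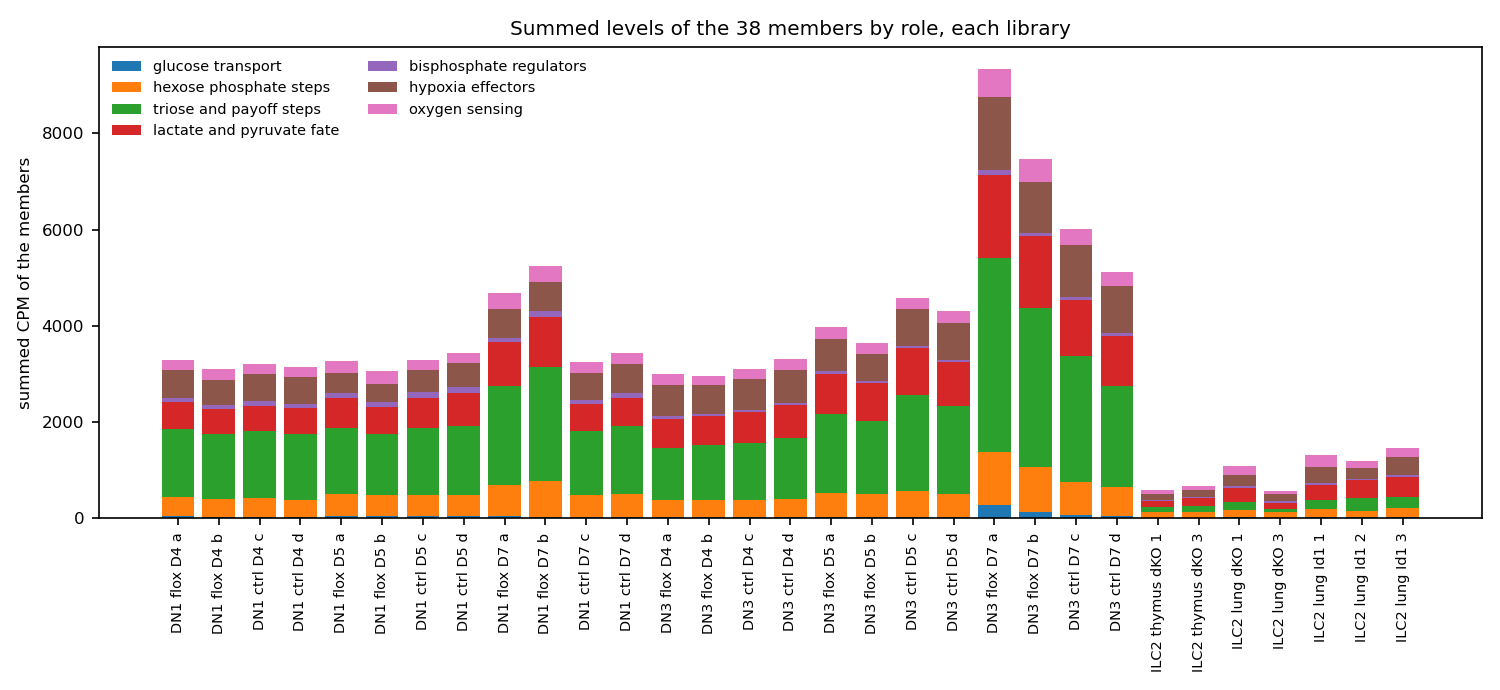
Stacked bars give the summed CPM of the 38 members in each of the 31 libraries, coloured by role; heights are sums of CPM and are not corrected for gene length. The DN3 floxed libraries of day 7 are the tallest, at 9333 and 7473 CPM, and the 7 ILC2 libraries the shortest, at 572 to 1461 CPM of totals rich in mitochondrial counts (1405 to 2582 per 1e6 without them and the 2 repeat-like genes).

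Every value below written with ± is a log2 change, floxed minus control unless another pair is named, with its standard error, from edgeR's quasi-likelihood test with p adjusted by Benjamini-Hochberg over all genes tested. A gene passed at an adjusted p under 0.05. On day 4, 0 of 38 members passed in DN1, where 4 had an unadjusted p under 0.05 and DESeq2 called 1, and 0.0593% of the 15172 genes tested were higher and 0.0461% lower. In DN3 on that day 0 were higher and 1 lower, against 0.191% and 0.25% of all genes. On day 5, 1 member was higher and 4 lower in DN1 (2.56% and 2.46% of all genes), and 3 were higher and 6 lower in DN3 (4.56% and 5.2%). On day 7, 19 members were higher and 4 lower in DN1 (12.2% and 10.3% of all genes). DN3 on that day had 24 higher and 4 lower (12.9% and 12%). The median log2 change of the 38 was 0.44 in DN1 and 0.76 in DN3 on day 7, against -8.3e-05 and -0.00866 over all genes, and -0.12 in both precursors on day 5. With only the 4 compared libraries in the fit, 14 of the 23 DN1 members of day 7 passed. Calls lost without DN1 floxed replicate b, the library with muscle transcripts, are named with the genes below, as are those lost without other libraries. With the muscle genes left out of the TMM factors alone, 19 members were higher and 4 lower in DN1 on day 7, as by default. That setting moved the median of all genes by 0.001 and kept every member count. It therefore cannot show what muscle transcripts add to the members.

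**Figure D2:**
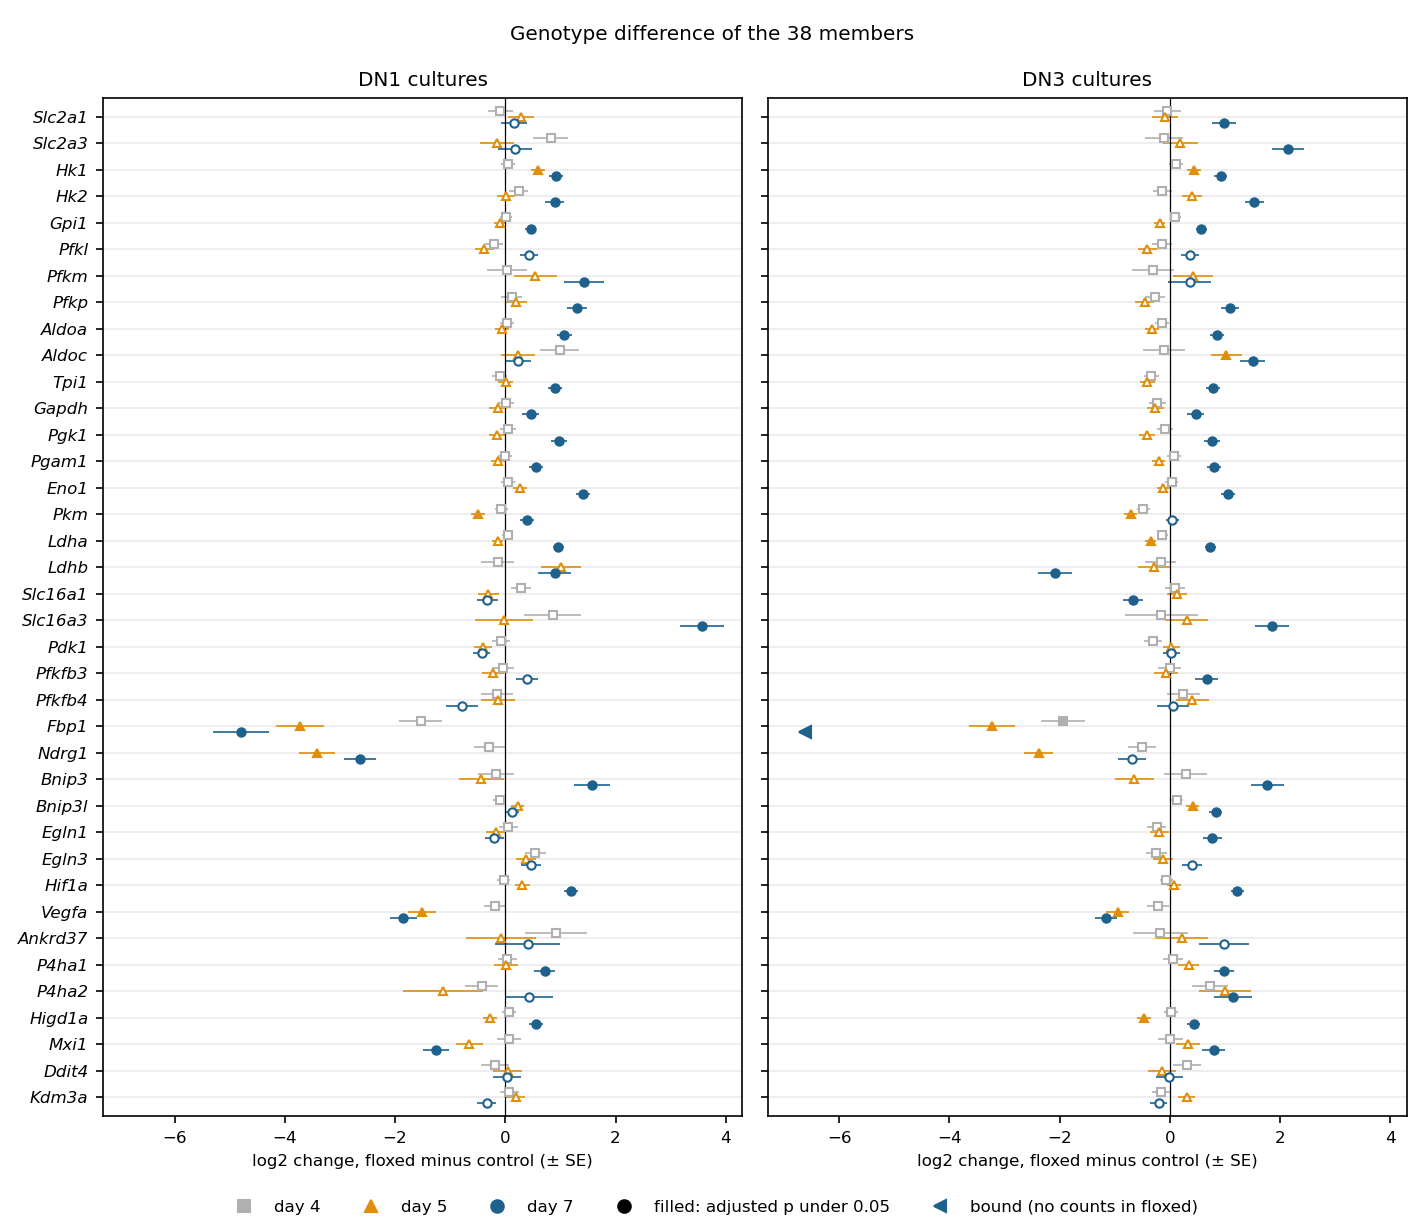
Points give the log2 change of each member, floxed minus control, with its standard error as a bar, on days 4, 5 and 7 in DN1 (left) and DN3 (right); filled points have an adjusted p under 0.05, and the arrowhead of Fbp1 in DN3 on day 7 is a bound, since that floxed group had no counts. Most enzymes lie near 0 on days 4 and 5 and to the right of 0 on day 7, while Fbp1 and Vegfa lie to the left on all 3 days, with filled points from day 5 in both precursors and, for Fbp1 in DN3, on day 4.

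Fbp1 (ENSMUSG00000069805, chr13:62864753-62888282 minus strand, mm10) encodes fructose-1,6-bisphosphatase, which reverses the phosphofructokinase step in gluconeogenesis. Floxed libraries lay below their controls on every day, and held few or no counts on day 7. On day 4, before the drug, DN1 floxed libraries held 36 and 30 counts against 94 and 80 in controls, or 3.37 and 4.602 against 11.2 and 11.4 CPM, and the difference did not pass (-1.53 ± 0.39, adjusted p = 0.272). DN3 libraries of day 4 held 29 and 24 counts against 90 and 107, or 4.03 and 2.87 against 13.8 and 12.8 CPM (-1.94 ± 0.40, adjusted p = 0.0313). The DN3 difference is a description, since the choice of this gene set named it, and it did not pass without any 1 of its 4 libraries (adjusted p = 0.118 without floxed replicate a, 0.383 without b, 0.264 without control c and 0.161 without d). On day 5, Fbp1 stood at 1.98 and 1.56 against 19.9 and 25.95 CPM in DN1 (-3.72 ± 0.43, adjusted p = 3.18e-05). DN3 libraries of day 5 stood at 2.85 and 1.11 against 17.1 and 18.7 CPM (-3.23 ± 0.42, adjusted p = 6.94e-05). On day 7, DN1 floxed libraries held 0 and 10 counts against 173 and 143, or 0 and 1.33 against 20.99 and 17.9 CPM (-4.79 ± 0.50, adjusted p = 2.75e-06). Both DN3 floxed libraries of day 7 had 0 counts against 168 and 204 in controls, which puts Fbp1 at least 98.5-fold lower (floor of 3 counts over the floxed group, adjusted p = 3.24e-07). No floxed library overlapped a control library on any day. Without a call this says little, since libraries did not overlap for 18 of the 38 members in DN1 and 17 in DN3 on day 4. On day 7 the number was 30 in each precursor, and the share over all genes was not computed for any day. The stromal markers of day 4 summed to 10260 to 11690 CPM in DN1 floxed against 13170 to 13890 in control libraries, and to 4119 to 4824 against 2759 to 3083 in DN3, and their part in the difference was not tested.

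Ndrg1 (ENSMUSG00000005125, chr15:66929318-66969640 minus strand, mm10), a gene of differentiation and stress that hypoxia induces, was lower within a day of the drug. DN1 libraries of day 4 were at 23.4 and 21.2 CPM in floxed libraries against 27.5 and 26.96 in controls (-0.29 ± 0.27, adjusted p = 0.999). On day 5 they were at 6.07 and 3.68 against 52.6 and 49.1 CPM (-3.41 ± 0.32, adjusted p = 2.73e-06), and on day 7 at 9.904 and 13.3 against 70.2 and 80.4 CPM (-2.63 ± 0.28, adjusted p = 2.53e-06). The floxed libraries were the low ones on both later days, with no overlap. In DN3, Ndrg1 was at 85.8 and 56.5 against 102 and 102 CPM on day 4 (-0.51 ± 0.25, adjusted p = 0.625) and at 29.8 and 15.5 against 114 and 112 CPM on day 5 (-2.38 ± 0.27, adjusted p = 1.04e-05). On day 7 DN3 libraries were at 91.1 and 51.98 against 122 and 118 CPM, and the difference just missed the threshold (-0.69 ± 0.25, adjusted p = 0.0502).

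Vegfa, the angiogenic factor and a textbook target of Hif1a, was lower in the same cultures. Its level in DN1 was 6.35 and 4.96 against 13.8 and 17.5 CPM on day 5 (-1.503 ± 0.25, adjusted p = 0.00127) and 4.76 and 5.73 against 20.7 and 18.7 CPM on day 7 (-1.85 ± 0.25, adjusted p = 2.74e-05). DN3 libraries stood at 26.04 and 16.6 against 40.4 and 38.5 CPM on day 5 (-0.95 ± 0.21, adjusted p = 0.00602) and at 29.96 and 18.004 against 56.5 and 55.01 CPM on day 7 (-1.16 ± 0.21, adjusted p = 0.000341). On day 4 the floxed libraries were already the lower ones by a small margin, at 33.3 and 36.97 against 38.4 and 41.1 CPM in DN1 and 44.6 and 36.9 against 46.5 and 49.3 CPM in DN3, and neither passed (adjusted p = 0.999 and 0.815). The DN3 call of day 5 was lost when floxed replicate b (adjusted p = 0.147) or control replicate c (0.052) was left out.

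**Figure D3:**
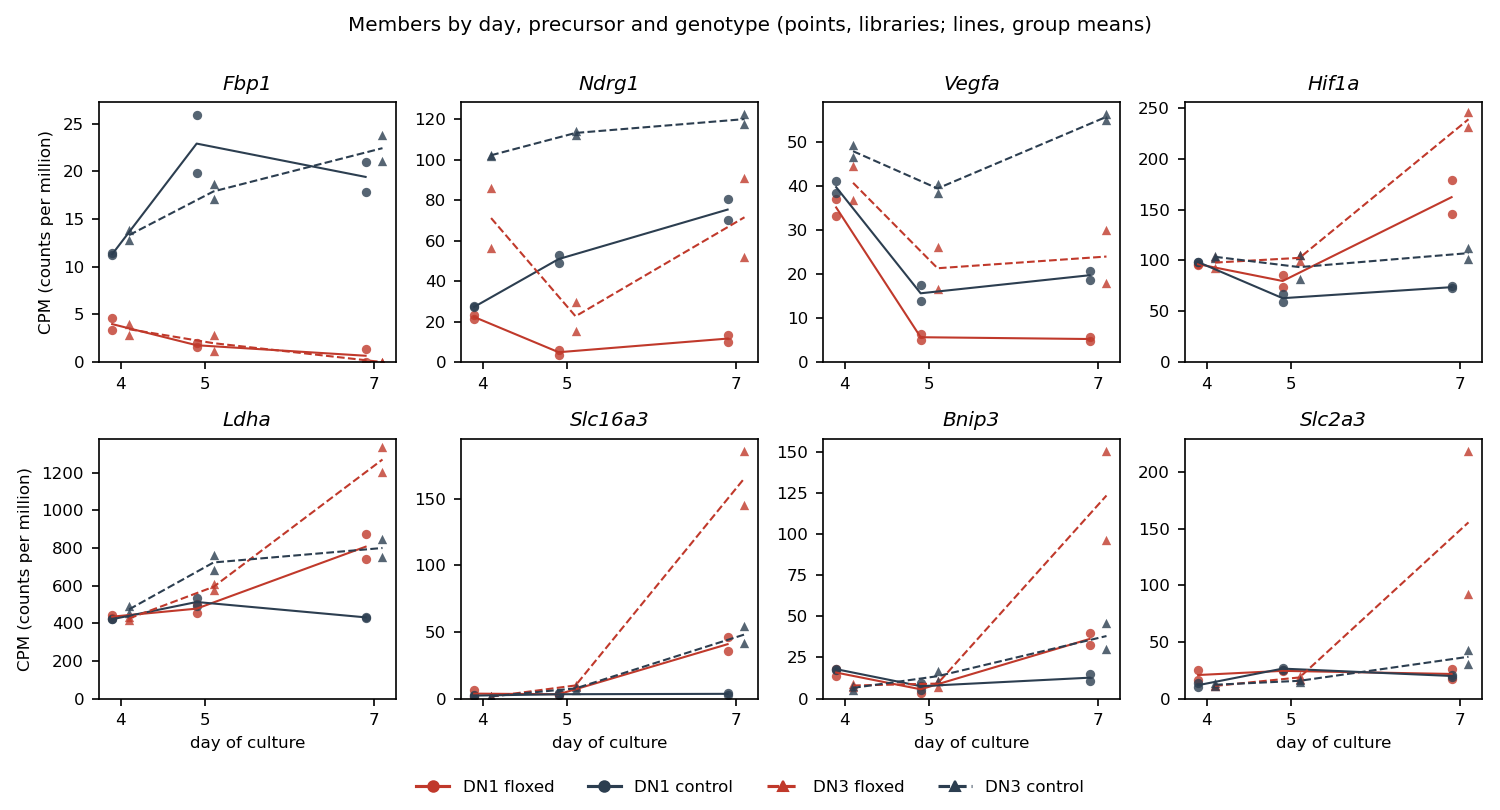
Points give the CPM of 8 members in each culture library on days 4, 5 and 7, and lines join the group means (DN1 as circles and solid lines, DN3 as triangles and broken lines, floxed in red and control in dark blue). Fbp1 and Vegfa run below their controls in the floxed cultures on all 3 days, day 4 before the drug included, while Hif1a, Slc16a3 and Bnip3 stay near the controls until day 5 and lie above them on day 7, as does Ldha after a lower value in DN3 on day 5.

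Day 5 brought few other differences, and most of these were small. Hk1, a hexokinase that traps glucose in the cell, was already higher, at 102 and 112 CPM in floxed libraries against 66.7 and 71.9 in controls in DN1 (0.59 ± 0.12, adjusted p = 0.00717). In DN3 it was at 98.3 and 96.2 against 75.7 and 62.2 CPM (0.43 ± 0.12, adjusted p = 0.0321). Floxed libraries were above controls in both precursors. Pkm, the pyruvate kinase that closes glycolysis, went the other way on that day, at 163 and 151 against 208 and 222 CPM in DN1 (-0.49 ± 0.12, adjusted p = 0.0247) and 233 and 241 against 397 and 346 CPM in DN3 (-0.71 ± 0.12, adjusted p = 0.00085). Ldha, the lactate dehydrogenase of fermenting cells, was lower in DN3 at 609.7 and 577 against 760.3 and 685 CPM (-0.35 ± 0.10, adjusted p = 0.0281) and did not differ past the threshold in DN1 at 503 and 452 against 494 and 532 CPM (-0.14 ± 0.10, adjusted p = 0.522). Another 3 members passed in DN3 and not in DN1. The aldolase Aldoc was higher at 8.31 and 11.3 against 4.92 and 4.31 CPM (1.02 ± 0.28, adjusted p = 0.0261), and Bnip3l, a mitophagy receptor, was higher at 94.4 and 87.4 against 65.2 and 65.7 CPM (0.41 ± 0.12, adjusted p = 0.0347). Higd1a, a mitochondrial protein induced by low oxygen, was lower at 323 and 248 against 384 and 371 CPM (-0.47 ± 0.12, adjusted p = 0.0187). For none of the differences that passed did the libraries of the genotypes overlap. With or without a call, libraries did not overlap for 25 of the 38 members in DN1 and 28 in DN3 on that day. The share over all genes was not computed, so these counts say little about the members. Whether DN1 and DN3 differed on day 5 was not tested.

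Leaving out 1 library ended several calls of day 5. In DN1, Pkm did not pass without any 1 of the 4 (adjusted p = 0.0626 to 0.243), nor Hk1 without floxed replicate b (0.109) or control c (0.105). In DN3, Hk1 was lost without floxed a (0.118), floxed b (0.14) or control d (0.303), Ldha without control c (0.259), floxed b (0.222) or floxed a (0.0592), and Bnip3l without any 1 library (0.109 to 0.178). Aldoc was lost without floxed b (0.269), control c (0.095) or control d (0.168), and Higd1a without floxed b (0.321), control c (0.126) or control d (0.0658). Fbp1 and Ndrg1 passed in both precursors, Vegfa in DN1 and Pkm in DN3, whichever library was left out. In DN1 on day 5, 10 of 12 stromal markers were higher in floxed libraries (1518 to 1781 against 837 to 850.2 CPM), with Igfbp4 the largest part, and their share in these differences was not tested.

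Glucose enters lymphocytes through Slc2a1 and Slc2a3, and both passed on day 7 in DN3 cultures. Slc2a1 was at 49.8 and 36.01 CPM in floxed libraries against 24.9 and 20.6 in controls (0.98 ± 0.21, adjusted p = 0.00207). Slc2a3 was at 219 and 92.05 against 43.2 and 30.6 CPM (2.14 ± 0.29, adjusted p = 2.34e-05), with replicate a more than double replicate b and both above the controls. In DN1 neither passed: Slc2a1 was at 12.5 and 12.5 against 12.3 and 11.1 CPM (0.16 ± 0.24, adjusted p = 0.675) and Slc2a3 at 25.9 and 17.6 against 18.8 and 21.1 CPM (0.18 ± 0.31, adjusted p = 0.722), and the Slc2a3 libraries overlapped. Slc2a3 shares a stretch of at least 100 bases at 95% identity or more with 68 other genes, so part of its counts is uncertain.

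Of the 7 genes of the hexose phosphate steps, 5 were higher and 1, Fbp1, lower in DN1 on day 7, and 4 were higher and 1 lower in DN3. Hk1 was at 169.9 and 198 against 98.7 and 103 CPM in DN1 (0.92 ± 0.12, adjusted p = 2.26e-05) and at 194 and 171 against 104 and 98.2 CPM in DN3 (0.92 ± 0.12, adjusted p = 1.67e-05). Hk2, the hexokinase that activated lymphocytes induce, was at 109.8 and 120.3 against 59.7 and 69.2 CPM in DN1 (0.90 ± 0.17, adjusted p = 0.000911) and 172 and 119 against 63.4 and 42.5 CPM in DN3 (1.53 ± 0.17, adjusted p = 3.31e-06). Every floxed library was above every control for both hexokinases. Gpi1, which turns glucose phosphate into fructose phosphate, was at 272 and 302 against 216 and 219 CPM in DN1 (0.46 ± 0.10, adjusted p = 0.00344) and 505 and 443 against 355 and 314 CPM in DN3 (0.57 ± 0.10, adjusted p = 0.000395). Among the phosphofructokinases, which commit sugar to glycolysis, Pfkp was at 45.3 and 50.1 against 22.2 and 18.1 CPM in DN1 (1.30 ± 0.18, adjusted p = 3.4e-05) and 144 and 131 against 71.5 and 64.5 CPM in DN3 (1.08 ± 0.17, adjusted p = 7.03e-05). The muscle form Pfkm stood at 10.5 and 34.2 against 8.86 and 8.61 CPM in DN1 (1.43 ± 0.36, adjusted p = 0.00785), with its high value in the library that holds muscle transcripts, and at 11.8 and 8.799 against 8.77 and 8.06 CPM in DN3 (0.35 ± 0.38, adjusted p = 0.564). Pfkl, the liver form, passed in neither (adjusted p = 0.0736 in DN1 and 0.111 in DN3). Without DN1 floxed replicate b, Gpi1 and Pfkm did not pass (adjusted p = 0.0598 and 0.578, Pfkm with a log2 change of 0.305), and Pfkm also missed without control c (0.0561) or d (0.0613).

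The 8 genes of the triose and payoff steps went one way: 7 were higher and 0 lower on day 7 in each precursor. Aldoa, which splits fructose bisphosphate, was at 328 and 384 against 171 and 183 CPM in DN1 (1.07 ± 0.13, adjusted p = 1.06e-05) and 704 and 632 against 426 and 347 CPM in DN3 (0.86 ± 0.13, adjusted p = 6.45e-05). Tpi1, which interconverts the triose phosphates, was at 231 and 233 against 129 and 131 CPM (0.90 ± 0.13, adjusted p = 7.14e-05) and 521 and 381 against 309 and 239 CPM (0.79 ± 0.13, adjusted p = 0.000162). Pgk1, the first step that yields ATP, was at 322 and 437 against 191 and 214 CPM (0.97 ± 0.14, adjusted p = 8.43e-05) and 796 and 620.1 against 494 and 383 CPM (0.76 ± 0.14, adjusted p = 0.000587). Pgk1 lies on the X chromosome, and the part of sex in its change was not tested. The sex-linked sums also differed on days 4 and 5 (599 to 1903 CPM in floxed against 101.4 to 204.6 in control libraries). Genotype and sex cannot be told apart on those days either. For these enzymes each floxed library lay above each control. Pgam1, the mutase that follows, was at 603 and 702 against 436 and 491 CPM in DN1 (0.56 ± 0.12, adjusted p = 0.00315) and 976 and 805 against 588 and 482 CPM in DN3 (0.80 ± 0.12, adjusted p = 7.95e-05). Eno1, enolase, was at 209 and 173 against 70.7 and 78.5 CPM (1.41 ± 0.12, adjusted p = 2.77e-07) and 385 and 352 against 208 and 164 CPM (1.05 ± 0.12, adjusted p = 3.31e-06), the largest change of a payoff enzyme in DN1. Gapdh, the dehydrogenase of the middle of the pathway, was at 60.2 and 81.7 against 52.5 and 55.3 CPM (0.46 ± 0.15, adjusted p = 0.0396) and 97.1 and 77.02 against 70.8 and 60.8 CPM (0.47 ± 0.15, adjusted p = 0.0302).

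Another pair, Pkm and Aldoc, passed in 1 precursor each. Pkm was at 288 and 337 against 246 and 251 CPM in DN1 (0.39 ± 0.12, adjusted p = 0.0269) and at 485 and 392.2 against 501 and 391 CPM in DN3, where the genotypes overlapped (0.04 ± 0.12, adjusted p = 0.855). Aldoc was at 28.6 and 23.05 against 21.5 and 24.2 CPM in DN1, again with overlap (0.23 ± 0.23, adjusted p = 0.494), and at 81.1 and 63.9 against 29.3 and 24.4 CPM in DN3 (1.501 ± 0.22, adjusted p = 5.37e-05). Leaving out 1 DN1 library ended the calls of Gapdh (adjusted p = 0.535 without floxed b, 0.187 without control c, 0.116 without control d), Pkm (0.307, 0.135 and 0.103) and Pgam1 (0.059 without floxed b and 0.0573 without control c), and in DN3 that of Gapdh (0.288 without floxed a and 0.255 without control d). Counts of Gapdh and Eno1 are uncertain, since 146 other genes, 138 of them pseudogenes, share near-identical stretches with Gapdh, and Eno1b shares one with Eno1 and held 88.2% as many culture counts. Pfkp likewise shares a stretch with Pitrm1, which held 59.1% as many counts. The 5 genes that share a stretch with Gpi1, 1 of them a pseudogene, held 33.5%, with the protein-coding Wdr33 alone at 23.4%. The 2 genes that share one with Higd1a, 1 of them a pseudogene, held 24.6%.

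Lactate export held the largest gain of the set in DN1 and the second largest in DN3, after Slc2a3. Slc16a3 (ENSMUSG00000025161, chr11:120948480-120960868 plus strand, mm10), the lactate exporter MCT4 of glycolytic cells, was low on day 4, at 6.36 and 1.07 against 2.62 and 1.85 CPM in DN1 and 0.972 and 2.03 against 1.23 and 2.15 CPM in DN3. On day 7 it was at 35.8 and 45.8 against 4.12 and 2.996 CPM in DN1 (3.57 ± 0.40, adjusted p = 3.36e-06). DN3 libraries of that day were at 186 and 145 against 54.8 and 41.4 CPM (1.85 ± 0.31, adjusted p = 0.000197). Both floxed libraries were the high ones in each precursor, and the DN3 controls of day 7 were themselves above all libraries of days 4 and 5. Ldha (ENSMUSG00000063229, chr7:46841475-46855627 plus strand, mm10) was at 739 and 873 against 429 and 433 CPM in DN1 (0.96 ± 0.10, adjusted p = 1.39e-06) and 1334 and 1204 against 846 and 753 CPM in DN3 (0.73 ± 0.10, adjusted p = 1.68e-05), without overlap. Ldhb, the form that favours lactate use, went opposite ways: it was at 28.7 and 46.8 against 22.6 and 19.8 CPM in DN1 (0.90 ± 0.29, adjusted p = 0.0349) and at 21.5 and 7.85 against 58.4 and 69.7 CPM in DN3 (-2.09 ± 0.31, adjusted p = 4.76e-05). Slc16a1, the carrier MCT1, was lower in DN3 at 47.6 and 48.5 against 76.6 and 83.8 CPM (-0.67 ± 0.18, adjusted p = 0.0111) and did not pass in DN1 at 44.4 and 23.7 against 48.5 and 40.1 CPM (-0.33 ± 0.19, adjusted p = 0.232). Pdk1, which keeps pyruvate out of mitochondria, passed in neither precursor (adjusted p = 0.0543 and 0.936). In DN1, Ldhb was lost without control d (adjusted p = 0.177), control c (0.105) or floxed b (0.418), and in DN3 Slc16a1 without floxed a (0.068), floxed b (0.0648) or control d (0.0934).

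Shares within isozyme sets, computed per kilobase of the principal transcript, put these differences on one scale and carry no test. Slc16a3 made up 45.1 and 66.4% of the CPM per kilobase of Slc16a1 and Slc16a3 in DN1 floxed libraries of day 7, against 7.09 and 7.99% in controls. In DN3 the shares were 75.3 and 79.9% against 33.5 and 42.2%. Ldhb was 0.88 and 2.14% of Ldha plus Ldhb in DN3 floxed libraries against 8.56 and 11.1% in controls, while in DN1 it was 4.99 and 6.76% against 5.84 and 6.65%. Slc2a3 took 67.8 and 78.4% of the glucose carriers in DN3 floxed libraries against 55.1 and 58.8%. Pfkp took 59.8 and 64.0% of the phosphofructokinases in DN3 floxed libraries against 48.7 and 50.4%, and its share did not overlap in DN1 either (35.2 and 46.2% against 28.9 and 34.1%). The share of Hk2 in Hk1 plus Hk2 depended on the length used: it was 29.8 to 31.1% in DN1 floxed libraries of day 7 by principal transcript and 46.5 to 48.0% by the union of exons.

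**Figure D4:**
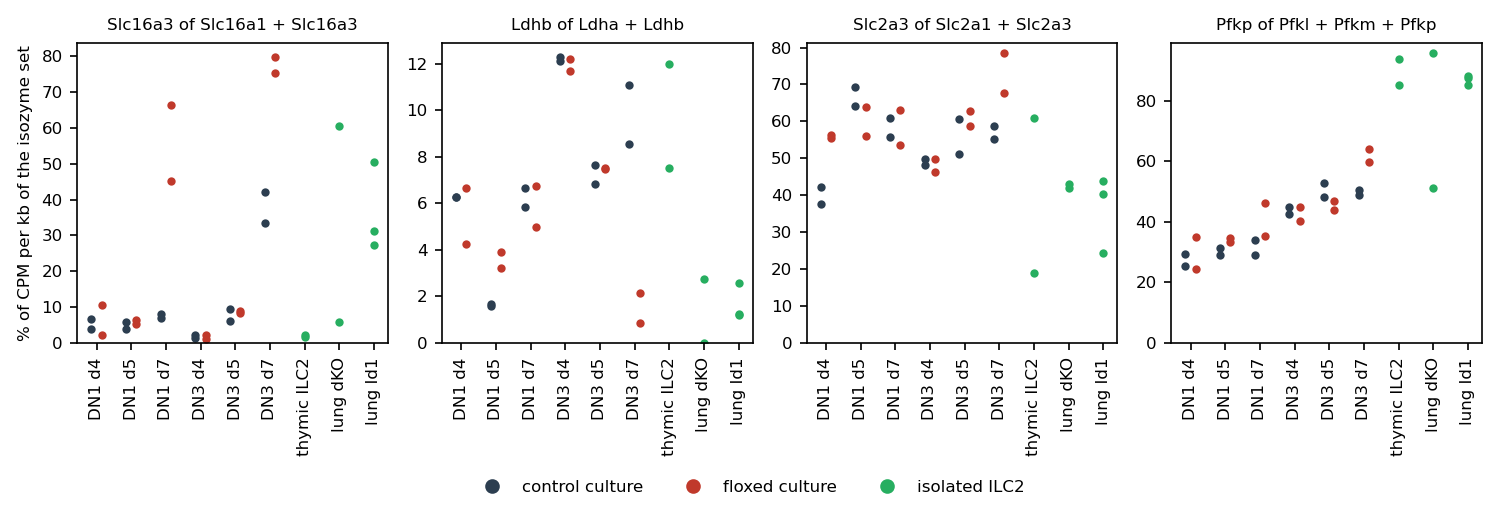
Points give, for each library, the share of 1 isozyme in the CPM per kilobase of its set, in percent, by precursor and day for control (dark blue) and floxed (red) cultures and for ILC2 isolated from mice (green). Slc16a3 shares of the floxed cultures lie above their controls on day 7 in both precursors, and those of Ldhb lie below the controls on day 7 in DN3 but not in DN1.

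Hif1a (ENSMUSG00000021109, chr12:73901375-73947530 plus strand, mm10), the oxygen-controlled subunit itself, followed the enzymes at the RNA level. On day 4 it was at 95.96 and 96.6 against 98.1 and 98.6 CPM in DN1 and 104 and 92.1 against 104 and 103 CPM in DN3, and on day 5 at 73.5 and 86.003 against 66.6 and 59.1 CPM and 105 and 99.6 against 81.8 and 105 CPM. None of these 4 comparisons passed (adjusted p = 0.999, 0.931, 0.204 and 0.793). On day 7 it was at 146 and 179 against 74.8 and 72.5 CPM in DN1 (1.20 ± 0.13, adjusted p = 2.15e-06) and 231 and 246 against 112 and 102 CPM in DN3 (1.22 ± 0.13, adjusted p = 1.01e-06). The floxed libraries were above the controls in both, and the call held whichever library was left out. Hif1a protein, which oxygen controls after translation, was not measured. The hydroxylase Egln1 was at 71.6 and 46.2 against 71.2 and 69.4 CPM in DN1 (-0.20 ± 0.17, adjusted p = 0.437) and at 168 and 122 against 91.6 and 86.7 CPM in DN3 (0.77 ± 0.17, adjusted p = 0.00215), a call lost without floxed replicate a (adjusted p = 0.061). Egln3 passed in neither on day 7 (adjusted p = 0.0703 and 0.108). Pfkfb3, which makes the fructose bisphosphate that activates phosphofructokinase, was at 103 and 52.1 against 56.7 and 45.1 CPM in DN3 (0.67 ± 0.20, adjusted p = 0.0223) with overlapping libraries, and lost its call without floxed a (0.724) or control d (0.228). In DN1 it did not pass at 89.9 and 108 against 76.5 and 80.8 CPM (0.40 ± 0.20, adjusted p = 0.165), nor did Pfkfb4 in either (adjusted p = 0.0618 and 0.925).

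Among 11 effector genes that low oxygen induces, 3 were higher and 3 lower in DN1 on day 7, and 6 were higher and 1 lower in DN3. Bnip3, a mitophagy receptor (ENSMUSG00000078566, chr7:138890836-138909519 minus strand, mm10), was at 32.8 and 39.7 against 10.7 and 14.7 CPM in DN1 (1.57 ± 0.33, adjusted p = 0.00174) and 151 and 96.2 against 45.8 and 30.2 CPM in DN3 (1.77 ± 0.30, adjusted p = 0.000209). Its relative Bnip3l was at 106 and 86.7 against 90.01 and 93.8 CPM in DN1 (0.12 ± 0.12, adjusted p = 0.484) and 202 and 149.8 against 106 and 102 CPM in DN3 (0.83 ± 0.12, adjusted p = 3.3e-05). Both receptors were thus high in DN3 floxed libraries and Bnip3 alone in DN1, and Bnip3l counts are uncertain because the pseudogene Bnip3l-ps, near-identical in part, held 54.2% as many. P4ha1, a collagen prolyl hydroxylase, was at 31.3 and 31.97 against 19.8 and 20.3 CPM in DN1 (0.72 ± 0.19, adjusted p = 0.0111) and 129 and 83.8 against 63.5 and 49.5 CPM in DN3 (0.98 ± 0.18, adjusted p = 0.000377). P4ha2, of the same enzyme family, was at 14.7 and 9.07 against 6.65 and 4.65 CPM in DN3 (1.14 ± 0.35, adjusted p = 0.0224) and did not pass in DN1 at 1.801 and 5.196 against 2.91 and 2.497 CPM (0.43 ± 0.44, adjusted p = 0.516). Higd1a was at 293 and 289 against 196 and 217 CPM in DN1 (0.56 ± 0.12, adjusted p = 0.00305) and at 575 and 449.7 against 419.6 and 376 CPM in DN3 (0.43 ± 0.12, adjusted p = 0.0132), so in DN3 it stood below its controls on day 5 and above them on day 7. Mxi1, which opposes Myc, differed in direction: it was at 7.72 and 4.93 against 15.8 and 15.9 CPM in DN1 (-1.26 ± 0.24, adjusted p = 0.000893) and at 35.2 and 29.1 against 21.4 and 17.6 CPM in DN3 (0.79 ± 0.21, adjusted p = 0.00924).

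Some of these effector calls hung on 1 library. In DN1, P4ha1 was lost without control d (adjusted p = 0.0608), control c (0.0771) or floxed b (0.0664), and Higd1a without control c (0.0532). In DN3, P4ha2 was lost without floxed a (0.232) or control d (0.219), Higd1a without floxed a (0.233) or control d (0.151), and Mxi1 without floxed a (0.0888) or control d (0.129). In all, 15 of the 23 calls of DN1 and 21 of the 28 of DN3 on day 7 held whichever library was left out. Pfkl, Pdk1, Pfkfb4, Egln3, Ankrd37, Ddit4 and Kdm3a passed between genotypes in neither precursor on any day. Of these, Ddit4, an inhibitor of mTOR signalling, was at 202 and 119 against 166 and 172 CPM in DN3 (-0.01 ± 0.24, adjusted p = 0.992), and the histone demethylase Kdm3a at 63.98 and 45.5 against 70.9 and 60.9 CPM (-0.20 ± 0.16, adjusted p = 0.398).

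The change of the genotype difference between day 4 and day 7 asks whether a gap opened during the culture. In DN1 it was positive and passed for 10 members and negative for 4, against 4.17% and 3.61% of all genes. The largest positive changes in DN1 were those of Slc16a3 (2.72 ± 0.68, adjusted p = 0.0179), Bnip3 (1.74 ± 0.46, adjusted p = 0.0254) and Eno1 (1.36 ± 0.17, adjusted p = 8.67e-05), and the negative ones were Fbp1 (-3.26 ± 0.68, adjusted p = 0.006), Ndrg1 (-2.35 ± 0.39, adjusted p = 0.000941), Vegfa (-1.67 ± 0.32, adjusted p = 0.00289) and Mxi1 (-1.33 ± 0.33, adjusted p = 0.0163). In DN3, 18 members changed upward and 3 downward, against 6.02% and 6.28% of all genes. Slc2a3 (2.25 ± 0.45, adjusted p = 0.00239), Hk2 (1.66 ± 0.25, adjusted p = 0.000245) and Aldoc (1.61 ± 0.44, adjusted p = 0.0219) led the positive ones, and Ldhb (-1.92 ± 0.41, adjusted p = 0.00451), Vegfa (-0.94 ± 0.29, adjusted p = 0.038) and Fbp1 (adjusted p = 0.000477) were the negative ones. Hif1a changed in both, by 1.23 ± 0.18, adjusted p = 0.000262 in DN1 and 1.29 ± 0.18, adjusted p = 0.000125 in DN3. Day 4 was not sorted, and the stromal sums above differ most between these days.

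Of the 14 changes in DN1, 10 held whichever library was left out, and of the 21 in DN3, 11 held. The DN1 exceptions were Mxi1 (lost without floxed a or control c of day 4, or floxed b or control d of day 7, adjusted p = 0.0564 to 0.0898), Bnip3 (floxed b, control c or d of day 4, or floxed b or control c of day 7, 0.0726 to 0.116), Pfkp (control c of day 4 or control d of day 7, 0.0611 and 0.0526) and Slc16a3 (the same 2 libraries, 0.166 and 0.0749). In DN3, leaving out floxed b of day 4 ended the calls of Slc2a1 (0.171), Aldoc (0.101), Bnip3l (0.0501), Egln1 (0.061) and P4ha1 (0.132), and leaving out floxed a of day 7 ended those of Slc2a1 (0.174), Aldoc (0.064), Pgk1 (0.0586), Pgam1 (0.0516), Bnip3l (0.062), Egln1 (0.0604) and P4ha1 (0.152). Leaving out control d of day 4 or of day 7 also ended Slc2a1 (0.162 and 0.179), Aldoc (0.304 and 0.079) and P4ha1 (0.102 and 0.141), while Bnip3l was lost without that of day 4 (0.0516) and Pgk1 and Pgam1 without that of day 7 (0.0737 and 0.071). Slc2a1 was also lost without control c of either day (0.0767 and 0.055), and Gpi1, Gapdh and Vegfa each without 6 or 7 of the 8 libraries (up to 0.204, 0.191 and 0.228).

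Whether the 2 precursors responded differently on day 7 was tested as the DN1 minus DN3 difference of the genotype effect. It passed upward for 2 members and downward for 6, against 3.81% and 3.98% of all genes. Ldhb (2.98 ± 0.42, adjusted p = 0.000281) and Slc16a3 (1.72 ± 0.50, adjusted p = 0.0419) were more positive in DN1. Mxi1 (-2.05 ± 0.32, adjusted p = 0.000666), Slc2a3 (-1.96 ± 0.42, adjusted p = 0.00747), Ndrg1 (-1.95 ± 0.38, adjusted p = 0.0035), Aldoc (-1.27 ± 0.32, adjusted p = 0.0183), Egln1 (-0.97 ± 0.24, adjusted p = 0.0179) and Bnip3l (-0.70 ± 0.17, adjusted p = 0.013) were more positive, or less negative, in DN3. For Slc2a1, which passed in DN3 and not in DN1, the difference between precursors did not pass (-0.82 ± 0.32, adjusted p = 0.121). Hif1a (-0.02 ± 0.18, adjusted p = 0.978), Hk1 (0.01 ± 0.17, adjusted p = 1) and Ldha (0.23 ± 0.14, adjusted p = 0.325) had responses close to each other in the 2 precursors, and a p that misses the threshold does not show them equal. Ldhb, Ndrg1 and Mxi1 passed whichever library was left out. Slc16a3 was lost without any 1 of 7 of the 8 libraries, all but DN1 floxed a (0.0636 to 0.175), Egln1 without DN1 floxed b, either DN1 control, DN3 floxed a or DN3 control d (0.0541 to 0.102), and Aldoc without DN1 floxed b, DN1 control d, DN3 floxed a or DN3 control d (0.0501 to 0.107). Bnip3l was lost without DN1 control d (0.0572), DN3 floxed a (0.0836) or DN3 control d (0.0699), and Slc2a3 without DN3 control d (0.0556).

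Control cultures also changed as they aged, which sets the baseline for the genotype differences. In DN3 controls, 18 members were higher on day 7 than on day 5 and 0 lower (0 also at an unadjusted p under 0.05 and by DESeq2), against 10.5% and 9.73% of all genes. Slc16a3 went from 8.93 and 6.33 to 54.8 and 41.4 CPM (2.60 ± 0.36, adjusted p = 5.29e-05), Aldoc from 4.92 and 4.31 to 29.3 and 24.4 (2.48 ± 0.27, adjusted p = 5.05e-06), and P4ha1 from 22.9 and 21.9 to 63.5 and 49.5 (1.28 ± 0.19, adjusted p = 8.41e-05). Both glucose carriers were among the 18 (Slc2a1 1.10 ± 0.23, adjusted p = 0.00224, Slc2a3 1.18 ± 0.31, adjusted p = 0.0111), and Hif1a was not (0.15 ± 0.13, adjusted p = 0.457). In DN1 controls 5 members were higher and 6 lower, against 6.45% and 6.65% of all genes, but the lower calls were 0, 0, 0 and 1 with 1 library left out, 1 with the 16 sorted libraries alone and 3 with RLE scaling. There Aldoc (2.37 ± 0.27, adjusted p = 3.08e-05), Ldhb (1.67 ± 0.34, adjusted p = 0.00317) and Ddit4 (1.11 ± 0.26, adjusted p = 0.00774) were higher on day 7, and Hk2 (-0.71 ± 0.17, adjusted p = 0.0103), Slc16a1 (-0.62 ± 0.19, adjusted p = 0.0315) and Ldha (-0.33 ± 0.10, adjusted p = 0.0301) lower. These calls share the control libraries of day 7 with the genotype comparisons.

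Leaving out 1 library reduced these counts. In DN1 controls 3 of the 11 calls held in every case, and the count was 3 without control c or d of day 5 and 4 without control c or d of day 7; Ldhb and Aldoc held, while Ddit4 (adjusted p = 0.0639 to 0.0732), Hk2 (0.0646 to 0.132), Slc16a1 (0.0732 to 0.233) and Ldha (0.0826 to 0.217) did not. In DN3 controls 7 of the 18 held, and the count was 10 without control d of day 5 and 7 without control c of day 7. Slc2a3 was lost without control c (0.054) or d (0.0981) of day 5 or control c of day 7 (0.13), while Slc16a3, Aldoc, P4ha1 and Slc2a1 held.

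Between precursors, the controls of day 7 differed broadly. In DN1 controls 1 member was higher and 24 lower than in DN3 controls, against 11.4% and 11.2% of all genes, and the median log2 difference was -0.86 against 0 over all genes. Slc16a3 (-3.76 ± 0.40, adjusted p = 1.23e-06), Pfkp (-1.76 ± 0.18, adjusted p = 7.23e-07) and Ldhb (-1.61 ± 0.29, adjusted p = 0.000439) had the largest differences among those that held in every case. The 1 higher member was Pfkfb3 at 76.5 and 80.8 in DN1 against 56.7 and 45.1 CPM (0.62 ± 0.20, adjusted p = 0.0342), lost without DN1 control c (adjusted p = 0.0959), DN1 control d (0.151) or DN3 control d (0.289). In all, 19 of the 25 calls held whichever library was left out. Slc2a3, Pdk1, Egln3, Ddit4 and Ankrd37 were lost without at least 1 of the 4 libraries (Slc2a3 without DN1 control c, 0.201, DN1 d, 0.114, or DN3 c, 0.287; Pdk1 without DN1 c, 0.173, or DN3 c, 0.168; Egln3 without DN1 c, 0.26, DN1 d, 0.0655, or DN3 c, 0.346; Ddit4 without DN1 c, 0.146, DN3 c, 0.0566, or DN3 d, 0.08; Ankrd37 without DN1 d, 0.134, or DN3 c, 0.0921).

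Genes outside the set were read from lists of the neighbouring pathways on day 7, beside the 12.2% higher and 10.3% lower of all genes in DN1 and the 12.9% and 12% in DN3. No list was tested against the members. Of 20 further Hif1a targets, 4 were higher and 2 lower in DN1, and 9 higher and 1 lower in DN3. Ero1l, the oxidase of protein folding, was higher in both (136 against 35.01 CPM on average, log2 change 2.02 ± 0.21, adjusted p = 1.52e-06 in DN1; 209 against 48.3 CPM on average, log2 change 2.19 ± 0.20, adjusted p = 3.55e-07 in DN3). Ak4, a mitochondrial adenylate kinase, was higher in DN3 (51.3 against 14.6 CPM on average, log2 change 1.90 ± 0.36, adjusted p = 0.000658). Bhlhe40, a hypoxia-induced repressor, was lower in DN1 (25.1 against 50.1 CPM on average, log2 change -0.94 ± 0.15, adjusted p = 0.000197) and higher in DN3 (68.99 against 31.1 CPM on average, log2 change 1.22 ± 0.15, adjusted p = 8.27e-06). Of 10 regulators of the pathway, 9 were tested: 1 was higher and 1 lower in DN1, and 1 higher and 0 lower in DN3. Egln2, another hydroxylase, was higher in DN1 (91.3 against 63.5 CPM on average, log2 change 0.59 ± 0.17, adjusted p = 0.0196), and the coactivator Ep300 in DN3 (78.6 against 59.3 CPM on average, log2 change 0.47 ± 0.13, adjusted p = 0.0106).

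Further glycolytic and gluconeogenic isoforms, 12 tested of 20, had 4 higher and 2 lower in DN1, where Eno3 (121 against 4.19 CPM on average, log2 change 4.93 ± 0.96, adjusted p = 0.00112) and Pgam2 (20.6 against 0.983 CPM on average, log2 change 4.45 ± 1.23, adjusted p = 0.0141) are muscle forms and members of the muscle marker list above. In DN3 1 was higher and 0 lower. Of 8 pentose phosphate genes, 2 were higher and 2 lower in DN1, and 2 higher and 1 lower in DN3. Pgls, the lactonase of that pathway, was lower in both (162 against 235 CPM on average, log2 change -0.47 ± 0.10, adjusted p = 0.00277 in DN1; 144 against 247 CPM on average, log2 change -0.71 ± 0.10, adjusted p = 4.69e-05 in DN3). Of 27 genes of pyruvate entry and the TCA cycle, 3 were higher and 1 lower in DN1, and 2 and 2 in DN3. Among 18 growth and nutrient regulators, 2 were higher and 1 lower in DN1, and 5 higher and 2 lower in DN3. Sesn3, a sestrin that restrains mTORC1, was higher in both (161 against 49.5 CPM on average, log2 change 1.76 ± 0.21, adjusted p = 8.88e-06 in DN1; 186 against 64.01 CPM on average, log2 change 1.61 ± 0.21, adjusted p = 1.41e-05 in DN3). Deptor, an inhibitor of mTOR, was higher in DN3 (68.8 against 6.33 CPM on average, log2 change 3.50 ± 0.28, adjusted p = 6.98e-08), and Tfrc, the transferrin receptor, lower in both (211 against 327 CPM on average, log2 change -0.57 ± 0.08, adjusted p = 6.62e-05 in DN1; 245 against 322 CPM on average, log2 change -0.33 ± 0.08, adjusted p = 0.00647 in DN3).

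ILC2 taken directly from the dKO thymus were compared with floxed cultures of day 7 in a fit of the same count table. The 10 ILC2 markers summed to 1290 and 1955 CPM in thymic ILC2 against 3001 to 3503 in DN1 (7 of 10 lower, 1 higher) and 3135 to 3259 in DN3 (5 lower, 3 higher). Marker levels here are plain CPM, and mitochondrial genes took 62 and 56.3% of the thymic totals against 2.35 to 2.71% in these cultures. In the scaled fit 8 of the 10 were tested. Of these, 2 were higher and 3 lower against DN1, and 3 higher and 4 lower against DN3. Il2ra (885 CPM on average), Il1rl1 (264) and Gata3 (112) were well counted in thymic ILC2, and Il13 (0.0882) and Il5 (0.104) nearly at 0. Lymphoid precursor and T cell markers summed to 1726 and 2082 CPM against 1094 to 1202 in DN1 (6 of 8 higher, 2 lower) and 1975 to 2052 in DN3 (4 higher, 3 lower). Ptprc (1139 CPM on average) and Il7r (304) were the highest of the 8 in thymic ILC2. Cd3e averaged 177 CPM in thymic ILC2 against 6.94 in DN1 and 142.9 in DN3, and Lck 21.59 against 254.5 and 373.5. The part of these differences in the member changes was not tested. Against DN1 floxed cultures 4 members were higher and 27 lower, where 33.6% and 40.1% of all genes passed. Against DN3 floxed cultures 2 were higher and 31 lower, where 33% and 38.8% passed. These comparisons share the thymic libraries. Pgam1, at 3.704 and 3.11 CPM in thymic ILC2, was among the furthest below both (-6.82 ± 0.20, adjusted p = 7.98e-18 against DN1; -7.28 ± 0.20, adjusted p = 3.5e-18 against DN3). Tpi1 was at 1.59 and 3.74 CPM (-5.74 ± 0.23, adjusted p = 1.12e-15 and -6.71 ± 0.23, adjusted p = 8.83e-17), and Ldha, at 75.3 and 90.1 CPM, was lower as well (-2.55 ± 0.12, adjusted p = 1.03e-14 and -3.22 ± 0.12, adjusted p = 3.05e-16). Bnip3 had 1 count in the 2 thymic libraries together, a ratio of 380.0 against DN1 (95% interval for counting error 67.8 to 15000) and of 1260 against DN3 (226 to 49900). Both ratios are taken over library totals without TMM scaling, so they are not on the scale of the log2 changes. Over the counts outside mitochondrial genes they would be smaller.

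A few members did not follow. Kdm3a, at 54.3 and 54.6 CPM, was higher than in DN1 cultures at 32.9 and 25.6 CPM (1.65 ± 0.17, adjusted p = 2.13e-08). Against DN3 cultures at 63.98 and 45.5 CPM it passed only after scaling (0.73 ± 0.17, adjusted p = 0.000589), since its plain CPM were about equal and the TMM factor of the thymic libraries was as low as 0.55. Over the counts outside mitochondrial genes, Gm10800 and Gm21738, a total chosen after seeing the data, its level was 143.8 and 127.8 per 1e6 against 65.6 and 46.6 in DN3. Pfkp was at 62.8 and 53.1 CPM, higher than in DN1 (1.04 ± 0.19, adjusted p = 5.08e-05) and lower than in DN3 (-0.50 ± 0.19, adjusted p = 0.0205), and made up 85.2 and 93.8% of the phosphofructokinase CPM per kilobase. Hif1a was at 64.6 and 63.1 CPM (-0.59 ± 0.14, adjusted p = 0.000753 and -1.17 ± 0.14, adjusted p = 2.07e-07), and its call against DN1 was lost with RLE scaling (adjusted p = 0.0628) and DESeq2 (0.0624), as was that of Pfkp against DN3 (0.423 and 0.446). Fbp1 had 0 and 8 counts, and was the other member called higher than in DN3, where both floxed libraries had 0. The other members called higher than in DN1 were Gapdh and Mxi1. Gapdh was at 45.0 and 68.5 CPM in thymic ILC2 against 60.2 and 81.7, so it passed as higher only after scaling. Mxi1 was at 5.29 and 22.2 CPM against 7.72 and 4.93. Slc16a1 passed against neither culture (0.31 ± 0.20, adjusted p = 0.165 and -0.21 ± 0.20, adjusted p = 0.352), and Slc16a3 was at 0.529 and 0.415 CPM. Mitochondrial genes took 56.3 and 62.0% of the thymic ILC2 counts and 2.02 to 3.55% in the cultures. Sex-linked genes differed too: Xist averaged 0.192 CPM in thymic ILC2 against 1456 in DN1 and 1785 in DN3 floxed cultures of day 7, and Ddx3y 102.3 against 0.8567 and 0.5753. The part of the mitochondrial counts, of sex and of fresh isolation against culture was not tested. Calls lost without 1 library were, against DN1, Gapdh (0.701 without floxed a, 0.3 without thymic replicate 3), Pfkm (0.0642 without floxed b) and Mxi1 (0.121 without thymic 3), and, against DN3, Pfkp (0.0598 without floxed a, 0.251 without thymic 3), P4ha2 (0.0908 without floxed a, 0.0719 without thymic 1), Kdm3a (0.0697 without floxed b) and Fbp1 (0.0539 without floxed b, 1 without thymic 3).

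In the lung, dKO ILC2 were compared with ILC2 of plck-Id1 mice, in which an inhibitor of E proteins is expressed instead. The 10 ILC2 markers summed to 1918 and 4802 CPM in dKO and 3592 to 5763 in Id1 libraries, with 5 of 10 lower and 1, Areg, higher in every dKO library, and none at 0. Il1rl1, the IL-33 receptor, averaged 1432 CPM in dKO and 1555 in Id1, Rora 487 and 1503, and Icos 235 and 578. Stromal markers were higher in every dKO library for 9 of 12 (sums 69.5 and 98.5 against 7.65 to 29.1 CPM), epithelial and endothelial markers for 3 of 8 (42.2 and 93.3 against 27.9 to 53.9 CPM) and muscle markers for 3 of 13 (93.1 and 140.7 against 19.3 to 37.4 CPM), and the part of all these in the member changes was not tested. Of the 35 members tested, 0 were higher and 2 lower in dKO, against 14.4% and 3.66% of all genes. At an unadjusted p under 0.05, 2 were higher and 7 lower, and DESeq2 called 2 higher and 5 lower. Pkm was at 10.5 and 14.9 CPM in dKO and 48.8, 31.1 and 55.6 in Id1 libraries (-1.68 ± 0.46, adjusted p = 0.0322). Gapdh was at 16.7 and 2.98 and 35.4, 47.6 and 32.95 (-2.09 ± 0.64, adjusted p = 0.0464). The dKO libraries were the low ones for both. Neither call was firm: Pkm did not pass without any 1 of the 5 libraries (adjusted p = 0.0505 to 0.141), nor Gapdh without dKO 3 (0.165) or any 1 Id1 library (0.059 to 0.138).

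Most members lay within the spread of the lung libraries. Hif1a was at 137 and 47.9 CPM in dKO and 175, 102 and 133 in Id1 (-0.58 ± 0.38, adjusted p = 0.326). Ldha was at 238 and 93.9 and 261, 354 and 332 (-0.98 ± 0.40, adjusted p = 0.118). Kdm3a, at 91.5 and 52.5 against 182, 89.6 and 190.2 CPM, did not pass (-1.02 ± 0.34, adjusted p = 0.0655). Fbp1 had 9 and 0 counts in dKO and 0 in each Id1 library, and it, Aldoc and Pfkfb4 were not tested. The lung libraries varied far more than the cultures (common coefficient of variation 0.706 against 0.138), mitochondrial genes took 14.2 to 50.9% of their counts, and 2 repeat-like genes, Gm10800 and Gm21738, took 45.0% of dKO replicate 3 and 0.47 to 6.77% of the others.

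Per kilobase of principal transcript, the median over the 24 culture libraries was highest for Pgam1 at 317 CPM, followed by Ldha at 282, Higd1a at 119, Aldoa at 115 and Pgk1 at 112. The glucose carriers were near the bottom, with medians of 4.91 CPM per kilobase for Slc2a3 and 3.59 for Slc2a1. Slc16a3 had the lowest median, 0.921, and one of the widest ranges, from 0.224 to 42.8, since it was high only in the day 7 libraries of DN3 and of DN1 floxed cultures. Fbp1 ranged from 0 to 17.5 around a median of 5.35. Neighbours in this order have ranges that overlap: Higd1a ran from 87.8 to 258 and Aldoa from 71.7 to 466.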

How the data were processed

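RNA was extracted with Trizol and libraries followed Illumina protocols, per the labels. The authors deposited raw counts by Ensembl gene ID, 26 thymic or culture libraries in one table and 5 lung libraries in another. The submitters' processing notes name mm10 and DESeq2. Not given in the sources used here: the aligner, the counting program, the strand setting and the annotation. Samples were grouped by title. Gene names and positions came from GENCODE M21, which held all 38 members and 48578 of the 48881 gene IDs.

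Counts were tested with edgeR 4.0.16 (R 4.3.3): filterByExpr (minimum count 10), TMM scaling, quasi-likelihood tests and Benjamini-Hochberg adjustment over all genes tested. The 24 culture libraries were fitted together (15172 genes, 12 residual degrees of freedom), all 26 of the thymus table for thymic ILC2 (16391 genes) and the 5 lung libraries alone (19371 genes, 3 residual degrees of freedom). All 38 members passed the filter in both fits of the thymus table and 35 in the lung, so the count of members tested there is not that of all members. Comparisons with fewer libraries have less precision. In the cultures 1 CPM is about 6 to 11 counts. CPM values are counts over the library total. A fold against a group with no counts is a bound from a floor of 3 counts over that group. A ratio to 1 to 3 counts is taken over library totals without TMM scaling and has a 95% interval that covers counting error only. Alternatives were RLE scaling, no filter, DESeq2 1.42.0, fits of fewer libraries, a replicate block and leaving out each library. The script was tested on simulated data. Near-identical stretches (at least 95% over 100 bases) were found with blastn 2.17.0.

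The members, the lists of neighbouring pathways and the marker lists were chosen with earlier results of these data known. Values per library are given for members that passed between genotypes on day 5 or 7 or in the change from day 4 to day 7. From each other list at most 3 genes per direction and comparison could be named, those with the largest change that passed with a mean of at least 20 CPM in the higher group. Replicates differed by more than sampling noise in every group. Lymph node samples, which the design text names, were not analysed here.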

Additional observations from a re-analysis of the deposited data

Results flagged for a closer look

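The values here are differences of the genotype effect, floxed minus control on the log2 scale, that passed a test of the difference itself between days or between precursors.

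From day 4 to day 7 in DN1, the effect changed upward for Slc16a3 (2.716), Bnip3 (1.736), Eno1 (1.357), Hif1a (1.233), Pfkp (1.186), Aldoa (1.042), Tpi1 (1.003), Pgk1 (0.93), Ldha (0.921) and Hk1 (0.878). It changed downward for Fbp1 (-3.26), Ndrg1 (-2.348), Vegfa (-1.668) and Mxi1 (-1.332).

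In DN3 the effect changed upward over the same days for Slc2a3 (2.254), Hk2 (1.664), Aldoc (1.607), Pfkp (1.355), Hif1a (1.288), Tpi1 (1.128), Slc2a1 (1.031), Eno1 (1.022), Egln1 (1.007), Aldoa (1.004), P4ha1 (0.92), Ldha (0.87), Pgk1 (0.85), Hk1 (0.81), Pgam1 (0.733), Bnip3l (0.706), Gapdh (0.7) and Gpi1 (0.469). It changed downward for Ldhb (-1.92) and Vegfa (-0.942), and for Fbp1, whose day 7 floxed group had no counts (adjusted p = 0.000477).

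On day 7 the effect in DN1 minus that in DN3 was positive for Ldhb (2.984) and Slc16a3 (1.722). It was negative for Mxi1 (-2.053), Slc2a3 (-1.962), Ndrg1 (-1.949), Aldoc (-1.267), Egln1 (-0.967) and Bnip3l (-0.704).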

How the results depend on the processing

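Groups of 2 or 3 libraries limit every call, and most calls lost under an alternative were lost by leaving out 1 library; where another cause is possible it was not tested. The number of members called, by default 23 in DN1 and 28 in DN3 on day 7, was 16 to 27 and 22 to 28 with 1 library left out. The other ranges were 3 to 4 (from 5) in DN1 and 3 to 6 (from 9) in DN3 on day 5, 0 (from 1) in DN3 on day 4, 10 to 24 (from 14) and 12 to 23 (from 21) for the change from day 4 to day 7 in DN1 and DN3, 3 to 4 (from 11) and 7 to 16 (from 18) for DN1 and DN3 controls over time, 20 to 23 (from 25) between control precursors, 3 to 10 (from 8) for the difference of responses, 30 to 32 (from 31) and 31 to 32 (from 33) for thymic ILC2 against DN1 and DN3, and 0 to 5 (from 2) in the lung. The 24 came without DN1 floxed replicate a of day 7. With only the compared groups in the fit, the count was 1 in DN1 on day 4 (from 0), 14 in DN1 on day 7, 5 in DN3 on day 5, 8 for the DN1 change, 17 for DN1 controls and 5 for the difference of responses. The 16 sorted libraries alone gave 6 for DN1 controls. Without the filter the counts were 3 in DN1 and 2 in DN3 on day 4 and 5 in the lung, DESeq2 gave 1 in DN1 on day 4 and 7 in the lung, and RLE scaling gave 0 in the lung. Fbp1 in thymic ILC2 against DN3 cultures had a fitted change of 0 without thymic replicate 3 (adjusted p = 1) and of 7.261 without replicate 1, a fit to 0 counts that is no bound. RLE scaling moved the median of all genes by 0.3 and 0.329 for thymic ILC2 against DN1 and DN3, by 0.211 in the lung, and by less than 0.1 elsewhere.

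Counts over all genes moved as well. Those of DN1 on day 4 were 16 by default, 229 without the filter, 44 with DESeq2 and 38 with the compared groups, and those of DN3 on day 4 were 67 and 257 without the filter. With the compared groups, DN1 on day 7 went from 3412 to 798, the DN1 change from 1180 to 421 (1882 without the filter), DN1 controls from 1988 to 4261, and the difference of responses from 1182 to 369 (1900 without the filter). The lung ran from 183 to 5774 with 1 library left out.

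Libraries with the same letter or number did not deviate together throughout (correlations of -0.237 to 0.135), though all 3 pairs of days in DN3 floxed cultures were above 0.1 (0.125, 0.118 and 0.135). No label says what a letter shares, and control letters did not pair. With the replicate block, 14 members were called for the change in DN1 and 19 in DN3, where Slc2a1 (adjusted p = 0.06), Gpi1 (0.0558) and Gapdh (0.0556) were lost, 12 and 17 for DN1 and DN3 controls, 26 between control precursors, 8 for the difference of responses and 2 in the lung. No paired analysis was possible for the genotype comparisons or for thymic ILC2 against cultures, because those groups share fewer than 2 labels.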
